A study of Rattus norvegicus with 6 samples.

Results

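The host gene given in the files as ENSRNOG00000004201, on the plus strand of rat chromosome 7, had 10 circular RNAs (circRNAs) among the 2228 detected in pineal glands. They are all circRNAs in the main tables of the 6 libraries whose host gene field held this identifier and no other. The gene was chosen by its number of circRNAs, from back-splice reads in these same libraries, so that number and their detection are given as a description. The gene ranked second by number of circRNAs among 1052 host genes. Its identifier could not be matched to a symbol, so it is called the host gene.

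The study sequenced total RNA from pineal glands, the source of circulating melatonin, to compare day with night; each of 6 rats, 8 weeks old, gave 1 library. Rats C01, C02 and C03 form one group and rats C04, C05 and C06 the other (n = 3 each). The labels contradict each other: titles and time tags put C01–C03 at 4:00, at night, and C04–C06 at 16:00, by day, whereas the treatment protocol calls C01–C03 the light group, taken in sunlight between 16:00 and 17:00, and C04–C06 the dark group, taken between 04:00 and 05:00 under red light. Groups are therefore named by rat number, differences are given as C01–C03 relative to C04–C06, and none is assigned to day or night. No strain, genotype or agent other than the anaesthetic is labelled, and no markers of the tissue could be checked because genes appear as identifiers only. The main tables held between 15506 and 22265 back-splice reads per library.

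A circRNA is made when the splicing machinery joins the end of a downstream exon back to the start of an upstream exon, a back-splice, which leaves a closed loop without free ends. One gene can yield several such loops by pairing different splice sites, a process called alternative circularisation, and the same sites also serve the linear transcript. Neural tissue is known for abundant circRNAs. Reads across a back-splice count the loop, and reads that cross the same ends without being back-spliced, called linear reads here, count the other RNA of the locus. The circular share is the percentage of signal at the ends that is circular, computed by the caller as 2 times the back-splice reads over that number plus the linear reads.

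The 10 circRNAs lay within chr7:78134700-78574310, a stretch of 439611 bases, and are numbered here by start and then by end. Coordinates are as the files give them, counted from 1, and the genome build is uncertain. CircRNAs 1 to 4, all classed as intronic by the caller, formed a left block. CircRNA 1 was chr7:78134700-78247197, circRNA 2 was chr7:78170329-78189124, circRNA 3 was chr7:78170329-78203324 and circRNA 4 was chr7:78170329-78247197. The right block began 99926 bases further on and held 6 circRNAs, 5 of them exonic. It opened with circRNA 5, the exonic chr7:78347124-78375555, and circRNA 6, the intronic chr7:78347306-78433970. CircRNAs 7, 8 and 9 were exonic and nested in each other, at chr7:78432827-78520474, chr7:78453734-78520474 and chr7:78462288-78520474. CircRNA 10, also exonic, was chr7:78520233-78574310. No other circRNA of the main tables overlapped this stretch.

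Ends were used repeatedly. The 10 circRNAs had 8 distinct starts and 7 distinct ends. The start 78170329 served circRNAs 2, 3 and 4, the end 78247197 served circRNAs 1 and 4, and the end 78520474 served circRNAs 7, 8 and 9. The circRNAs spanned from 18796 to 112498 bases of genome, with a median of 62464, whereas the median over the 1563 circRNAs with a single host gene was 11739. Of those 1563, 227 (14.5%) were classed as intronic, against 5 of 10 here. The class depends on the gene annotation the caller was given, which is not given in the sources used here.

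**Figure D1:**
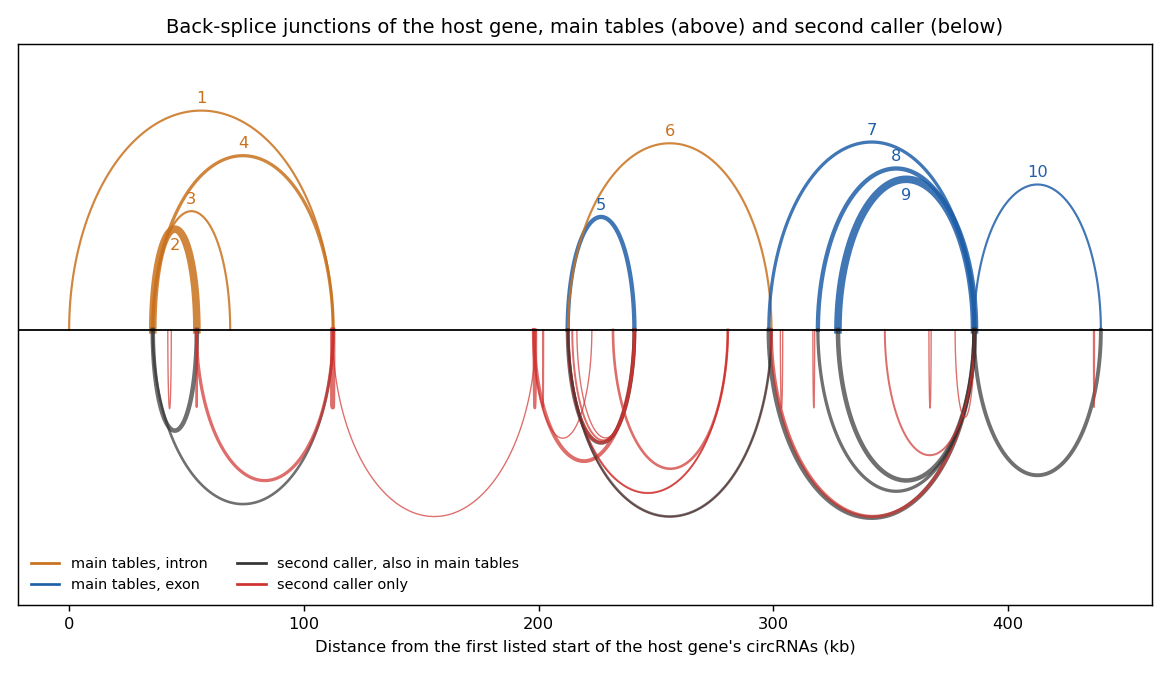
Back-splice junctions of the host gene drawn as arcs against distance from the first listed start (kb), with the main tables above the line and the second caller below, and thicker arcs for junctions listed in more of the 6 libraries. CircRNAs 2 and 9, listed in all 6, carry the thickest arcs above the line, and most arcs that only the second caller lists begin or end where another arc does.

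Of the 10 circRNAs only 2 were listed in every library, 4 were listed in 2 or 3 libraries and 4 in a single library. CircRNAs 2 and 9, the pair listed in every library, held 328 of the 469 back-splice reads of the host gene (69.9%). CircRNA 2, an intronic one and the most abundant, had 33, 41 and 31 reads in C01, C02 and C03 and 47, 22 and 24 in C04, C05 and C06. CircRNA 9, an exonic one, had 23, 15 and 18 reads in C01–C03 and 36, 14 and 24 in C04–C06. In both, C04 had the most reads and the groups overlapped. Relative to library size, circRNA 2 was highest in C02 and circRNA 9 in C04. Intronic circRNAs together had 238 reads and exonic ones 231, and the left and right blocks had 232 and 237. Reads of the main tables were thus divided almost evenly by class and by block. That division rests on circRNA 2, with 198 of the intronic reads, to which the second caller gave 69.

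The other 8 circRNAs had 14 listings between them, with 4 to 18 reads each and a median of 10. CircRNA 5 had 13, 10 and 11 reads in C04, C05 and C06 and was not listed in C01–C03. CircRNA 8 had 12 reads in C02, 9 in C04 and 10 in C06. CircRNA 7 had 9 reads in each of C04 and C05, and circRNA 4 had 9 in C02 and 10 in C06. Each of the remaining 4 appeared once: circRNA 10 with 18 reads in C04, circRNA 3 with 11 in C01, circRNA 6 with 6 and circRNA 1 with 4, both in C06. By group, C01–C03 had 9 of the 26 listings (34.6%) and C04–C06 had 17. Over the whole series C01–C03 had 2494 of the 5374 listings (46.4%), with 795 to 874 circRNAs per library against 946 to 986 in C04–C06. In the main tables, C01–C03 libraries thus listed fewer circRNAs in general.

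**Figure D2:**
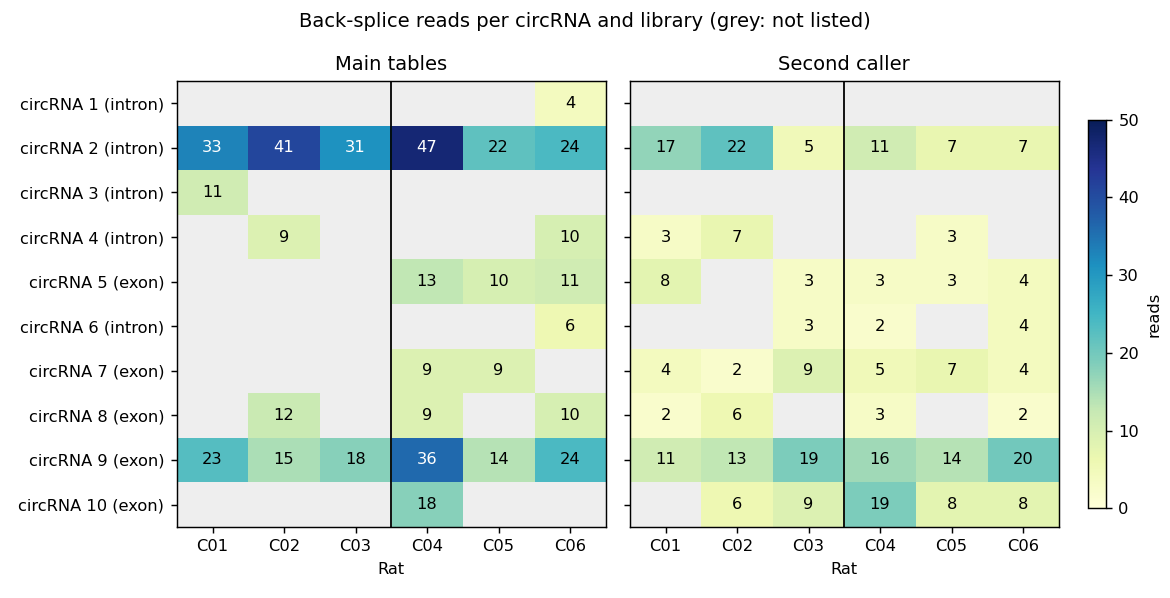
Back-splice reads of each circRNA (rows) in each rat (columns) in the main tables and in the second caller's lists, with grey for not listed and a line between the groups. CircRNAs 2 and 9 fill their rows in both panels, and circRNAs 5, 6, 7 and 10 have entries in C01–C03 only in the second caller's panel.

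The circular share was low for most listings. Over the 26 listings its median was 13.1%, against 17.8% over all 5374 listings of the series. The main tables hold no listing below a share of 9.09%, which is 20 linear reads per back-splice read, so an absent entry is not a measured 0. Many listings of the host gene stood close to that limit: 11 of 26 (42.3%) had over 14 linear reads per back-splice read, against 27.2% of all listings. The 14 listings of the 8 circRNAs not seen in every library had shares from 9.4% to 22.2%, with a median of 11.55%. The closest was circRNA 5 in C05, with 192 linear reads to 10 back-splice reads (19.2 per read, share 9.4%). CircRNA 1 in C06 followed, with 74 linear reads to 4 (share 9.8%).

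CircRNA 2 stood farther from the limit. Its circular share was 20.3%, 31.8% and 22% in C01–C03 and 37.8%, 20.9% and 25.5% in C04–C06, and the groups overlapped. At circRNA 9 the share was 12.6%, 10.9% and 13.4% in C01–C03 and 28.8%, 14.9% and 20.1% in C04–C06, lower in each library of C01–C03. Counting error is wide at these depths. The exact (Clopper-Pearson) 95% interval, computed on back-splice over all reads and converted to the share, ran from 21.5% to 36.8% for circRNA 9 in C04 and from 6.30% to 17.0% in C02. Such intervals cover counting error only, since reads without molecular identifiers are not independent molecules.

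**Figure D3:**
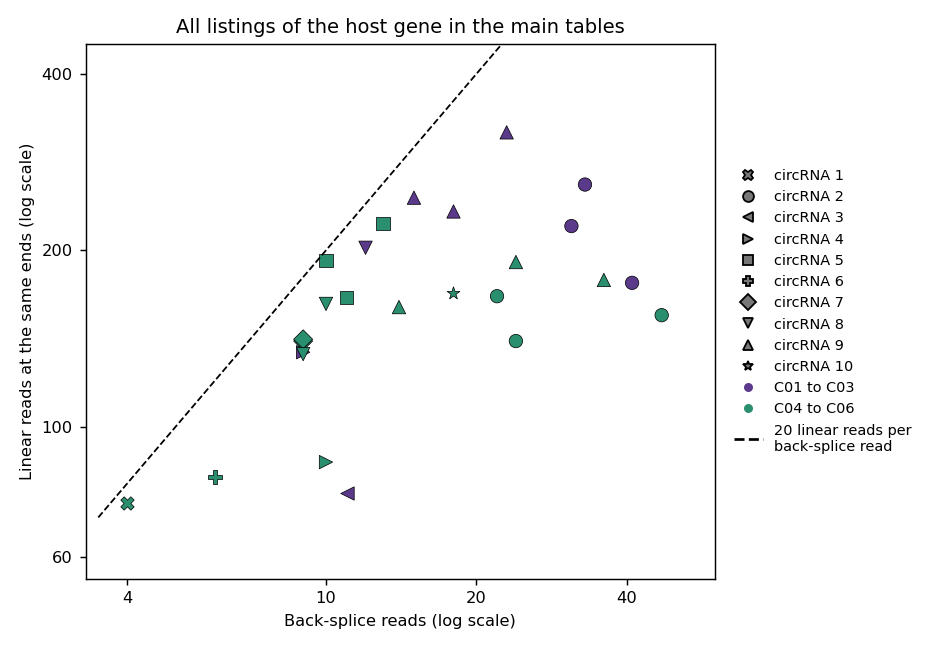
Linear reads against back-splice reads, both on log scales, for the 26 listings of the host gene, with one symbol per circRNA, colours for the groups and a dashed line at 20 linear reads per back-splice read. All points lie below the line, circRNA 5 nearest to it, and circRNA 2 lies to the right of most others.

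The central comparison asked whether the host gene's circRNAs differed between the groups. Summed over its circRNAs, the host gene had 67, 77 and 49 back-splice reads in C01–C03 and 132, 55 and 89 in C04–C06. C04 was the highest and C03 the lowest, and the groups overlapped. An unlisted circRNA counts as 0 in this total, which thus depends on what each library lists, and C01–C03 had 9 of the 26 listings. Normalised, the total was 5850 ± 1722 CPM (counts scaled to library size) in C01–C03 and 7450 ± 3310 in C04–C06 (SD, n = 3 each). The log2 difference was -0.35 (SE 0.37), and edgeR (quasi-likelihood F test, Benjamini-Hochberg adjustment over 473 host genes) gave an adjusted p of 0.99, where 1.06% of host genes passed. The difference was 0.020 without C04. With library size as the only scaling it was -0.23, and that choice moved the median over all host genes from -0.11 to 0.0025.

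Among single circRNAs, 4 of the 10 had at least 2 reads in at least 3 libraries and were tested among 772 circRNAs. In edgeR none of the 4 passed (adjusted p under 0.05), where 1.55% of the 772 did, and 1 had an unadjusted p under 0.05, where 9.97% did. CircRNA 2 had a log2 difference of 0.32 (SE 0.37) and circRNA 9 of -0.30 (SE 0.43), both with an edgeR adjusted p of 0.9997. CircRNA 8 had -0.45 (SE 1.99) and the same edgeR adjusted p. It was not listed in C01, C03 and C05, which were counted as 0, so its difference also depends on missing listings. CircRNA 5, listed in all of C04–C06 and none of C01–C03 as were 4.53% of the 772, had an edgeR unadjusted p of 0.0047 and an adjusted p of 0.17. DESeq2 (adjusted p 0.016) and limma-voom (adjusted p 0.0094) did call circRNA 5, each calling 1 of the 4, where they called 3.63% and 4.27% of the 772. In limma on TPM circRNA 5 was called (adjusted p 0.0013, pseudocount 1), where 6.28% of 494 circRNAs were. Its TPM was 0 throughout C01–C03, since TPM was above 0 only where both callers listed a circRNA. That call therefore rests on the same missing main-table listings. No fold is given for circRNA 5, since its absence from C01–C03 is a missing listing in the main tables. It met the filter only through its reads in C04–C06, and the unlisted C01–C03 libraries were counted as 0. The tests of circRNA 5 therefore give no support for a difference between the groups.

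The second caller, whose lists also start at 2 reads, did list circRNA 5 in C01–C03. It gave 8 reads in C01, 3 in C03 and no listing in C02, against 3, 3 and 4 in C04–C06, and the groups overlapped. CircRNA 7, listed only in C04 and C05 by the main tables, had 4, 2 and 9 reads in C01–C03 and 5, 7 and 4 in C04–C06. CircRNA 10, listed only in C04 by the main tables, had 19 reads there, 8 in each of C05 and C06, 6 in C02 and 9 in C03. In all the second caller listed 8 of the 10 circRNAs, in 18 pairings of circRNA and library in C01–C03 and 20 in C04–C06. Both callers gave 23 pairings, the main tables alone 3 and the second caller alone 15, of which 10 were in C01–C03. CircRNAs 1 and 3 were absent from all 6 lists of the second caller. Over the whole series the second caller listed 3999 to 4195 candidates per library in C01–C03 and 2843 to 4803 in C04–C06. How pairings of the second caller alone divide between the groups over the whole series was not counted, so the division here is a description only.

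In the second caller's counts, edgeR passed none of the 8 among 2208 candidates tested, where 0.0906% passed, and none had an unadjusted p under 0.05, where 5.39% did. The log2 differences of circRNAs 2 and 9 were 0.69 (SE 0.56) and -0.34 (SE 0.43), with the same signs as in the main tables. CircRNA 10 had -1.39 (SE 0.74, edgeR adjusted p 0.9998), with C01, where it was not listed, counted as 0. When 1 rat was left out, its difference lay between -2.05 and -0.61, the smallest in size without C04. Where both callers listed a circRNA, the main tables gave more reads in 20 of 23 pairings. The gap was wider at circRNA 2, with 17, 22, 5, 11, 7 and 7 reads from C01 to C06 in the second caller, than at circRNA 9, with 11, 13, 19, 16, 14 and 20. The ratio of main to second reads was 1.86 to 6.20 (median 3.29) at circRNA 2 and 0.947 to 2.25 (median 1.18) at circRNA 9. Of the second caller's reads, 44.9% were distinct at circRNA 2 and 77.4% at circRNA 9. CircRNA 9 was therefore the more abundant of the pair by the second caller, with 93 reads against 69, and the less abundant by the main tables, with 130 against 198.

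The number of the host gene's circRNAs listed per library overlapped between the groups, in a series where every C01–C03 library listed fewer circRNAs than every C04–C06 library. The main tables listed 3, 4 and 2 in C01–C03 and 6, 4 and 7 in C04–C06 (exact permutation test, two-sided, 10 splits, p = 0.2). The second caller listed 6 in each library of C01–C03 and 7, 6 and 7 in C04–C06 (exact permutation p = 0.4).

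In the main tables as listed, the part taken by circRNA 2 within the host gene was larger in C01–C03. The groups overlapped in the other counts given below, so no difference between the groups is drawn from it. CircRNA 2 made up 49.3%, 53.2% and 63.3% of the host gene's back-splice reads in C01–C03 and 35.6%, 40% and 27.0% in C04–C06. The groups did not overlap, at 55.3% ± 7.22 and 34.2% ± 6.63 (SD, n = 3 each), and the exact permutation p, two-sided, was 0.1, the smallest 3 against 3 can give. How often the most abundant circRNA of other host genes separated the groups in this way was not counted. The exact 95% intervals of single libraries overlapped between some rats of different groups, as for C01 (36.8% to 61.8%) and C04 (27.5% to 44.4%), and not between others, as for C03 (48.3% to 76.6%) and C04. These intervals treat reads as independent, which they are not, so they do not show that 2 rats differ. By construction this share depends on which other circRNAs a library lists. Counted over circRNAs 2 and 9 alone, circRNA 2 made up 58.9%, 73.2% and 63.3% in C01–C03 and 56.6%, 61.1% and 50% in C04–C06, and the groups overlapped (exact permutation p = 0.2). With the second caller's reads at the same ends it was 37.8%, 39.3% and 10.4% against 18.6%, 16.7% and 14.3% (exact permutation p = 0.4).

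Linear reads at the ends of circRNAs 2 and 9 were higher in C01–C03. At circRNA 2 there were 259, 176 and 220 linear reads in C01–C03 and 155, 167 and 140 in C04–C06. At circRNA 9 there were 318, 246 and 233 in C01–C03 and 178, 160 and 191 in C04–C06. Every library of C01–C03 exceeded every library of C04–C06 at both, as at 16.8% of the 273 circRNAs listed in all 6 libraries. Normalised over these 273, linear reads were 3714 ± 305 and 2628 ± 90.9 CPM at circRNA 2 and 4532 ± 366 and 3030 ± 444 at circRNA 9 (SD, n = 3 each). The log2 differences were 0.50 (SE 0.11) and 0.59 (SE 0.11), and both passed in edgeR (adjusted p 8.6e-05 and 4.5e-06). Of the 273, 31.9% passed, 18.7% in this direction, so a linear difference was common across the series. The 2 circRNAs share no end, but both count transcripts of the one host gene.

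That difference held under each of the 11 other settings run for it, including the leaving out of each rat, with log2 differences of 0.46 to 0.71 at circRNA 2 and 0.47 to 0.80 at circRNA 9. The top of each range came from scaling by total back-splice reads, a setting added after the data were seen. It moved the median over the 273 from -0.00099 to 0.21 and the calls from 51 higher and 36 lower to 79 higher and 13 lower. Total linear reads over the 273 were 59011 ± 7450 in C01–C03 and 58037 ± 3683 in C04–C06 (SD, n = 3 each). In a whole gland, more cells that express the gene and more RNA per cell cannot be told apart.

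**Figure D4:**
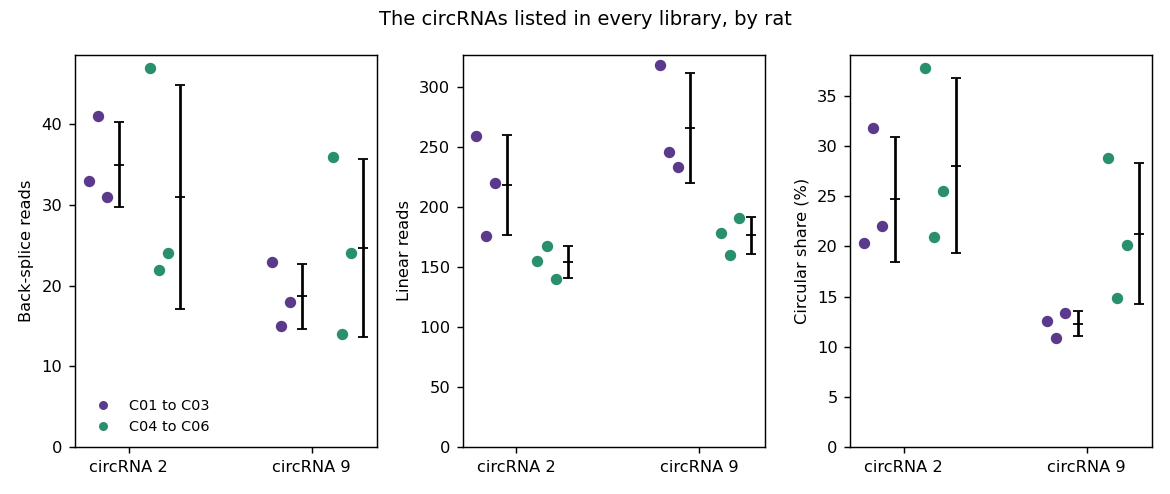
Back-splice reads, linear reads and circular share (%) of circRNAs 2 and 9 by rat, with a point per library and the mean ± SD beside each group of 3. Linear reads do not overlap between the groups at either circRNA, while back-splice reads overlap at both.

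The circular share gave no call for either. In limma, fitted to the log2 ratio of back-splice to linear reads, the log2 difference was -0.24 (SE 0.38) at circRNA 2 and -0.89 (SE 0.32) at circRNA 9, with adjusted p of 0.76 and 0.18 over the 273. None of the 2 passed, where 2.2% of the 273 did, and 1 had an unadjusted p under 0.05 (circRNA 9, limma p 0.022), where 20.5% did. A share lower in every library of C01–C03, as at circRNA 9, was found at 22% of the 273.

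Beyond the 10, the second caller outlined a wider set of back-splices in the host gene. Within the stretch from circRNA 1 to circRNA 10 it listed 31 junctions with 478 reads, 29 on the plus strand and 2 on the minus strand, all with the GT and AG splice dinucleotides at their flanks. Of these, 8 were circRNAs of the main tables, with 299 reads (62.6%), and 23 were absent from them, with 179 reads. Among the 21 absent ones on the plus strand, 13 used a start or an end of a main-table circRNA and 2 of these used both. Reads per library over the stretch were 99, 76 and 70 in C01–C03 and 87, 81 and 65 in C04–C06, and the groups overlapped. The second caller's reads over the whole series ran from 17641 in C04 to 30119 in C05. Scaled to these totals, C04 was highest and C05 lowest over the stretch, and the groups still overlapped.

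Each of the 5 absent junctions with most reads had the end of a main-table circRNA. The first, chr7:78246887-78247197, spans only 311 bases and was listed in all 6 libraries with 8, 4, 7, 2, 3 and 5 reads from C01 to C06. It ends where circRNAs 1 and 4 end, as does chr7:78188914-78247197, with 18 reads in 4 libraries. The end of circRNA 5 was shared by chr7:78332667-78375555, with 22 reads in 5 libraries, and by chr7:78347306-78375555, with 17 reads in 4. The latter also has the start of circRNA 6. The last, chr7:78433861-78520474, had 14 reads in 4 libraries and ends with circRNAs 7, 8 and 9.

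A few positions therefore took part in many junctions. Counting both callers, 78520474 closed 6 different circRNAs, 78375555 closed 5 and 78247197 closed 4, while no start served more than 3. The stretch of 99926 bases between the blocks was not empty in these lists, since 5 junctions with 42 reads had an end there. Of these, 4 were on the plus strand, that of the host gene. The start 78188914 lies just before the end 78189124 of circRNA 2, and the second caller joined these 2 into a circle of 211 bases with 3 reads in C05 and 2 in C03.

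The authors' TPM values ordered the same circRNAs differently. TPM, a read count set against transcript length and rescaled within each library, was deposited for 8 of the 10. Where both callers listed a circRNA, these values matched an average over the 2 callers' reads, rounded down to a whole number, per base of a length fixed for each circRNA. Where only 1 caller listed it TPM was 0, as at circRNA 4 in C06 with 10 main-table reads and at circRNA 5 in C01 with 8 second-caller reads. Solving for the length gave the whole genomic span for the intronic circRNAs, 18796 bases at circRNA 2, but 597 bases at circRNA 9, 639 at circRNA 8, 929 at circRNA 7, 709 at circRNA 10 and 1077 at circRNA 5. For the nested circRNAs 9, 8 and 7 the length thus rose with the span. CircRNA 2 had 37.2 to 123 TPM from 14 to 31 averaged reads, and circRNA 9 had 1171 to 3056 TPM from 14 to 26. CircRNA 9 was higher in TPM in every library, although its averaged reads did not exceed those of circRNA 2 in C01, C02, C03, C04 and C05.

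**Figure D5:**
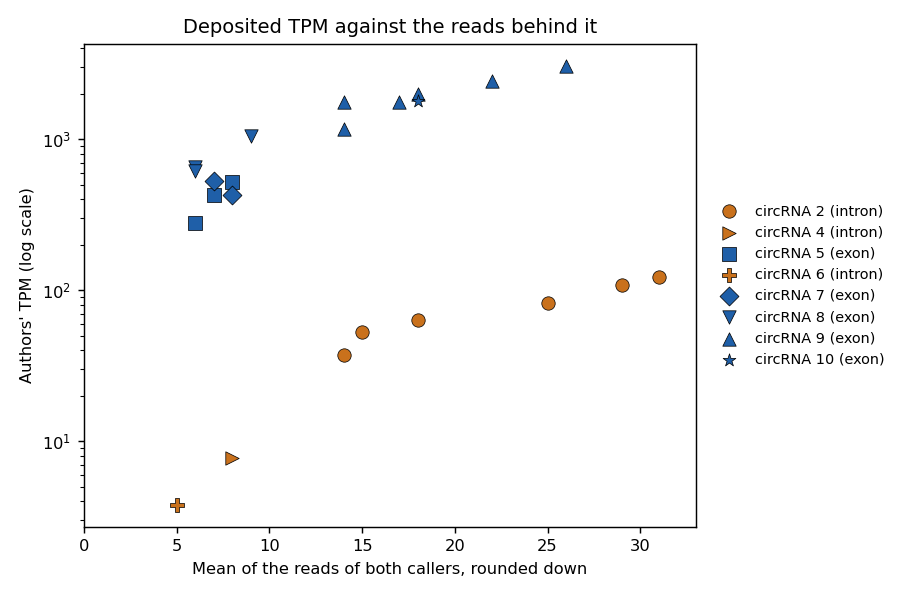
The authors' TPM (log scale) against the averaged reads of the 2 callers for each circRNA and library with a TPM above 0, with intronic circRNAs in orange and exonic ones in blue. At equal reads the exonic circRNAs lie far above the intronic ones, as with circRNA 9 at 1171 and circRNA 2 at 37.2 TPM, both from 14 reads in C05.

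Among the 22 host genes with 5 or more circRNAs, this one stood out in some measures and not in others, described here without a test because the number of circRNAs chose it. It had the most intronic circRNAs by number, 5 against 0 to 4 in the other 21, but not by share, since ENSRNOG00000031760, named after its values were seen, had 4 of 5. It had the second longest stretch, 439611 bases against a median of 105274. It ranked 5 of 22 by back-splice reads, with 469 against a median of 121 and a highest of 11027. Its most abundant circRNA held 42.2% of the reads (median of the others 45.5%), and the median circular share of its listings, 13.1%, ranked 17 of 22 (median of the others 19.4%).

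Relative to library size, the host gene was highest in C04 and lowest in C05 and then C03. Among 173 other host genes with at least 2 reads in every library, ENSRNOG00000022792 had the highest Pearson correlation of log2(CPM + 1) with it over the 6 libraries (r = 0.96), followed by ENSRNOG00000011420 (r = 0.95). The latter had 78, 78 and 71 back-splice reads in C01–C03 and 121, 80 and 89 in C04–C06. Both were highest in C04 and lowest in C05, but next lowest in C01. These are the best of 173 comparisons over 6 libraries that share their depth, and are given as a description.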

How the data were processed

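The main tables, 1 per rat, are in the layout of the circRNA caller CIRI. In them the authors deposited counts of back-splice and linear reads and the circular share as a fraction, per the file headers. The second caller's lists, in find_circ layout, give deposited counts of reads per junction. TPM values for the series were deposited by the authors. Caller versions, aligner and annotation were not given in the sources used here. DESeq and a mouse build, mm9, appear in the submitters' processing notes, while the files hold rat gene identifiers. Starts of the second caller were raised by 1.

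Libraries were matched on the coordinates of each circRNA, and an unlisted circRNA was counted as 0. A circRNA or host gene needed 2 reads in 3 libraries or more to enter edgeR 4.0.16 (quasi-likelihood, TMM, R 4.3.3). Linear counts were fitted in the same way over circRNAs listed in all 6 libraries, and the circular share with limma 3.58.1 (log2 of the ratio, 0.5 added to each count). Adjustment was Benjamini-Hochberg, with a threshold of 0.05. Alternatives were DESeq2 1.42.0, limma-voom, other scalings and filters, the TPM values (pseudocount 0.760 or 1) and leaving out each rat. Fits were tested on simulated data. All circRNAs of the host gene are named, with the 5 second-caller junctions of most reads outside the main tables and the 2 most alike host genes. The members and lists were chosen with earlier results of these data known.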

Additional observations from a re-analysis of the deposited data

How the results depend on the processing

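No paired analysis was possible because each rat gave 1 library and the groups consist of different rats. The host gene's log2 difference in back-splice reads lay between -0.61 and 0.020 when 1 rat was left out, above 0 only without C04, and between -0.33 and -0.14 in the other settings, never past the threshold. The number of its circRNAs called for back-splice reads, 0 in edgeR, became 1 with DESeq2, with limma-voom, and with TPM at either pseudocount. In each case this was circRNA 5, which the main tables do not list in C01–C03. The number called was 0 in the other settings, but without C04, C05 or C06 and with a filter on all 6 libraries circRNA 5 was not tested, so those 4 show nothing of its stability. Calls over all circRNAs rose from 12 to 28, 33 and 41 with DESeq2, limma-voom and no filter, fell to 7 with a filter on all 6 libraries, and were 31 of 494 with TPM and 0 to 14 without 1 rat; calls over host genes rose from 5 to 20, 26 and 23, fell to 2, and were 1 to 5. Calls of the circular share went from 6 to 10 with an offset of 1 and to 3 to 5 without 1 rat, and the second caller's 2 calls became 4 with a filter on all 6 libraries and 0 to 2 without 1 rat. The second caller's counts gave 0 host genes in edgeR (32 at an unadjusted p under 0.05). Signs were not stable without 1 rat at circRNA 8 (-0.99 to 0.15) and circRNA 9 (-0.57 to 0.098) for back-splice reads, at circRNA 2 for the circular share (-0.50 to 0.091), and in the second caller's reads at circRNA 5 (-1.23 to 0.57), circRNA 7 (-0.87 to 0.17) and circRNA 8 (-0.92 to 1.31). None of these was past the threshold, and the cause was not tested. The calls for linear reads at circRNAs 2 and 9 held in all 11 settings (adjusted p 8.96e-07 to 0.0026). Outside circRNAs 2 and 9 no main-table listing exceeded 18 reads.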
